A study of Mus musculus with 48 samples.

Results

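The claudins and tight junction genes described here are 10 genes named by symbol: the claudins Cldn1, Cldn2, Cldn3, Cldn4, Cldn7, Cldn8, Cldn15 and Cldn23, together with Ocln and Tjp1. Each was taken as the row of that symbol, 1 row per Ensembl gene, in the expression tables of 6 mouse tissues. Of the 10 genes, 9 were listed in at least 1 tissue, among 15541 genes listed in any tissue. The duodenal, jejunal and ileal villi each listed 8 of them (Cldn1 and Cldn8 were not listed). The liver listed 5 (Cldn1, Cldn2, Cldn3, Ocln and Tjp1). Subcutaneous white adipose tissue (WAT) and gastrocnemius muscle each listed 3 (Cldn1, Cldn15 and Tjp1). Cldn8 was listed in no tissue. Every listed gene averaged at least 1 CPM (a count scaled to a common library total) and was tested.

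Tight junctions are belts of protein strands that seal neighbouring epithelial cells at their apical border. Claudins are the tetraspan proteins that form the strands: some tighten the seal, and others form channels that let small ions and water pass between the cells. Occludin sits in the same strands, and zonula occludens proteins below the membrane tie the strands to actin. In the small intestine these junctions hold back luminal contents and carry the paracellular sodium that nutrient uptake depends on.

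The libraries came from male C57Bl6 mice made obese on a high fat diet. The mice had Roux-en-Y gastric bypass (RYGB), which joins a small gastric pouch to the jejunum, or sham surgery, and both groups were then put on a liquid elemental diet. Tissue was taken 9 days after surgery, at 10am after an overnight fast. Villi were scraped from the bowel after EDTA, so the intestinal libraries hold scraped villi and not whole wall. Duodenum and jejunum were each represented by 3 RYGB and 4 sham libraries, the ileum had 5 and 5, and the liver, WAT and muscle had 4 and 4 each, which makes 48 libraries. The labels name the libraries by number within a group and do not say which tissues came from the same mouse, so p-values measure the spread between these libraries.

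Marker genes were looked up under each tissue label: all 11 intestinal epithelial markers (among them Vil1 and Cdh17) were listed in the 3 segments, all 8 hepatocyte markers in the liver, all 6 adipocyte markers in WAT and all 8 fibre markers in muscle. Listing alone does not tell tissues apart, since all 6 adipocyte markers were also listed in muscle. Their sums were 13702 to 20092 CPM in sham WAT and 134 to 949 in sham muscle. Library totals were scaled away in the deposited CPM, so sequencing depth is unknown. The median correlation of a library with the others of its group was 0.9398 or higher on the log2(CPM + 1) scale. The lowest value was that of WAT RYGB replicate 4, and the other WAT libraries were at 0.9786 or higher. In the duodenum 3 libraries stood apart by Clps, the pancreatic colipase gene and the 1 listed gene of 10 acinar markers. Clps was at 831 CPM in RYGB replicate 3, 899 in sham replicate 1 and 2660 in sham replicate 2, against 7.0 to 16.0 in the other duodenal libraries.

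Cldn3, Cldn4 and Cldn15 lie on mouse chromosome 5 (build GRCm38). Cldn4 spans chr5:134945119-134946934 on the minus strand and Cldn3 spans chr5:134986214-134987472 on the plus strand, with 39279 bases between them, and Cldn15 spans chr5:136966616-136975858 on the plus strand. The other called or widely varying genes lie elsewhere: Cldn2 at chrX:139800828-139811386, Cldn23 at chr8:35824712-35826559 and Tjp1, the gene of ZO-1, at chr7:65296165-65527781. The 3 genes called in any tissue carry the Ensembl identifiers ENSMUSG00000055976 (Cldn23), ENSMUSG00000001739 (Cldn15) and ENSMUSG00000030516 (Tjp1). The end of Cldn3 overlaps the antisense gene Wbscr25, so reads there can be told apart only if strand was used in counting.

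RefSeq start-site windows were at hand for 8 of the 10 genes, and Cldn8 and Cldn23 had none. The 250 bases before the start are shown 5′ to 3′ for the 2 genes that varied most between libraries of the gut (Cldn2 and Cldn4) and the 2 that fell in WAT (Cldn15 and Tjp1). Capitals mark 3 motifs chosen after the windows were seen, each sought on both strands: the AP-1 site (TGACTCA or TGAGTCA), the GC box (GGGCGG or CCGCCC) and the TATA box (TATAAA or TTTATA). They do not overlap in these windows. The positions in the build GRCm38.p6 are chrX:139800558-139800807 on the plus strand for Cldn2, chr5:134946935-134947184 on the minus strand for Cldn4, chr5:136967619-136967868 on the plus strand for Cldn15 and chr7:65371245-65371494 on the minus strand for Tjp1.
Cldn2: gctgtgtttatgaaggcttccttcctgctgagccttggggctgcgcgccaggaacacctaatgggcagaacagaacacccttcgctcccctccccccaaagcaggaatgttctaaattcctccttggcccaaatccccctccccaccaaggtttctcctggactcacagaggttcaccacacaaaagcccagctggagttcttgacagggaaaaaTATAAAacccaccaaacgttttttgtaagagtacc
Cldn4: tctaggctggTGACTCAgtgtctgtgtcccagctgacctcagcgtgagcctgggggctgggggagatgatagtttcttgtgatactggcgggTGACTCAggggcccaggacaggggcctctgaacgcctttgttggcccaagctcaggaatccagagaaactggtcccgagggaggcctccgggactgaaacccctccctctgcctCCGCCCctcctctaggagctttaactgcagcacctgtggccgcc
Cldn15: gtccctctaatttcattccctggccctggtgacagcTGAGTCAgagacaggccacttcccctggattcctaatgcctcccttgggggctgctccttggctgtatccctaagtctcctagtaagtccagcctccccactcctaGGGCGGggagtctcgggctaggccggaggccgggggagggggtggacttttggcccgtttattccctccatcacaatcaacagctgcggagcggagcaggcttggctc
Tjp1: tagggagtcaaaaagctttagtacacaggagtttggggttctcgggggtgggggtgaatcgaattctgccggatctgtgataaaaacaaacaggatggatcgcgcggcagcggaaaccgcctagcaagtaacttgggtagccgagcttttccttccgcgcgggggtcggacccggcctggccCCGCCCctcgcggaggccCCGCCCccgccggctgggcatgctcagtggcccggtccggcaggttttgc
The Cldn4 window holds 2 AP-1 matches and the Cldn15 window holds 1, whereas 4.46% of all 32851 windows of this length hold any. These were the 2 of 8 members with such a match. The Cldn2 window is the one among the members with a TATA match (12.4% of all windows), and it has no GC box. A GC box was found in at least 1 window of 7 of the 8 members, with 2 matches in the Tjp1 window. Of all windows 32.7% held one, a share by window, whereas the members were counted by gene. Cldn7 and Ocln had 2 windows each, and Cldn7 had a match in 1 of its 2. Such matches are letters in a window and were not tested as binding sites. The Cldn15 and Tjp1 windows lie inside the gene spans given above. They therefore precede a RefSeq start within the gene and not its outermost annotated start.

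Levels were first compared between the genes in the sham libraries, as CPM per kilobase of exon, which takes out gene length. In jejunal villi Cldn15, a sodium channel of the small intestine, was at 383 ± 65.3 CPM per kb (SD, n = 4) and Cldn7, a claudin of the lateral membrane that binds Epcam, at 365 ± 99.4. The ranges of these 2 genes overlapped. Cldn3, a sealing claudin, followed at 156 ± 27.8 and Cldn4, which also tightens the junction, at 54.9 ± 13.1, each below the range of the gene before it. Ocln was at 35.2 ± 4.84, overlapping the low end of Cldn4. Cldn23 at 13.4 ± 2.85 and Tjp1 at 11.5 ± 3.24 were not separated by their spread. Cldn2, a cation and water channel, was lowest at 0.684 ± 0.568.

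The ileum had the same leading pair, with Cldn7 at 439 ± 81.6 CPM per kb (SD, n = 5) and Cldn15 at 394 ± 68.7, and Cldn2 was again the lowest at 0.878 ± 0.187. In the duodenum Cldn7 (264 ± 34.6, n = 4) and Cldn15 (260 ± 106) had the highest means as well, but Cldn15 ranged from 123 to 382 and overlapped Cldn3 (92.9 to 135) and Cldn4. There Cldn4 ranged from 10.7 to 151 CPM per kb between sham libraries. It could not be placed in the order relative to Cldn15, Cldn3, Ocln, Cldn23, Tjp1 or Cldn2 (2.26 to 24.2). In the liver Cldn3 (61.1 ± 5.31 CPM per kb, n = 4) and Cldn2 (51.1 ± 6.18) overlapped at the top, followed by Cldn1 (28.2 ± 2.69), Tjp1 (5.96 ± 1.21) and Ocln (3.99 ± 0.820), of which the last pair overlapped. In WAT Cldn15 (50.8 ± 18.0 CPM per kb, n = 4) and Tjp1 (43.9 ± 7.19) overlapped and Cldn1 (1.31 ± 0.776) was far below. In muscle Tjp1 led at 5.51 ± 1.02. The tissue tables were normalized separately, so levels can be set side by side between tissues but were not tested. With that limit, Cldn2 was at 45.7 to 59.7 CPM per kb in sham liver and at 0.120 to 1.44 in sham jejunum.

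**Figure D1:**
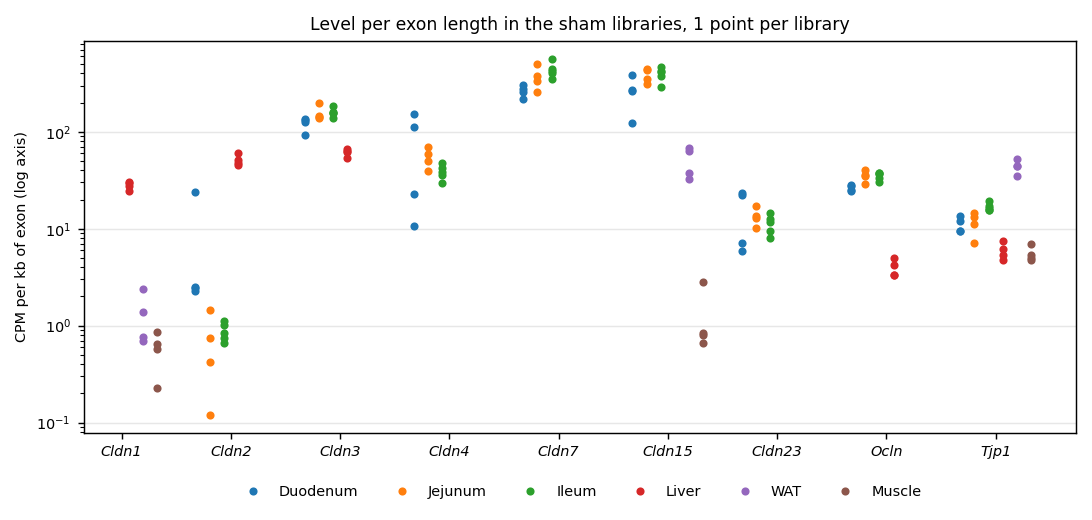
CPM per kilobase of exon (log axis) of each gene in the sham libraries of the 6 tissues, 1 point per library and 1 colour per tissue. Cldn7 and Cldn15 had the highest means in the 3 gut segments, and Cldn2 was near 50 in the liver (mean 51.1) but mostly near or under 2.5 in the gut, apart from 1 duodenal library at 24.2.

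RYGB and sham libraries were then compared within each tissue with limma on log2(CPM + 1). A gene was called when its Benjamini-Hochberg adjusted p over all genes of the tissue was under 0.05 and its fold change on that scale was at least 1.5. In bulk tissue fewer cells of a type and less RNA per cell cannot be told apart. In jejunal villi 1 of the 8 genes was called, Cldn23, which rose. The background was 9.75% of the 10854 genes tested there, and 3 of the 8 (Cldn2, Cldn4 and Cldn23) had an unadjusted p under 0.05, as had 24.6% of all genes. In duodenal villi 0 of 8 genes were called (background 0.00922%), with 0 at an unadjusted p under 0.05 (18.8% of all genes). In ileal villi 0 of 8 were called (background 6.05%), again with 0 at an unadjusted p under 0.05 (26.5% of all genes).

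Cldn23 in the jejunum was at 73.4, 56.7 and 34.0 CPM in the RYGB libraries and at 23.8, 25.1, 18.6 and 31.4 in the sham libraries. All 3 RYGB values exceeded all 4 sham values, with the lowest RYGB and the highest sham value close together. It was the 1 member of 8 whose jejunal groups did not overlap, where 22.2% of all genes did not overlap. The difference was 1.07 ± 0.27 (log2, SE), with an adjusted p of 0.0371 by limma and a 95% interval of 0.46 to 1.68. The call was lost without RYGB replicate 1 (log2 difference 0.828, adjusted p = 0.104), RYGB replicate 2 (1.01, 0.126), sham replicate 1 (1.06, 0.0771), sham replicate 2 (1.08, 0.0606) or sham replicate 3 (0.947, 0.0954). RYGB replicate 2 was the jejunal library of another sequencing lane, so the values without it are also the values within the shared lane. Over all alternatives the adjusted p lay between 0.0106 and 0.126, and the difference stayed positive.

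Cldn4 and Cldn2 had jejunal differences of similar or larger size that did not pass. Cldn4 was at 394, 172 and 93.2 CPM in RYGB libraries and at 72.1, 108, 128 and 90.9 in sham libraries. RYGB replicates 1 and 2 were above all sham libraries, but RYGB replicate 3 lay inside the sham range. The difference was 0.92 ± 0.41 with an adjusted p of 0.199 by limma, and without RYGB replicate 3 it was 1.41 with an adjusted p of 0.0459, which met the rule. Cldn2 was at 2.9, 4.0 and 30.4 CPM in RYGB and at 0.4, 4.8, 2.5 and 1.4 in sham libraries. A single RYGB library was high and the others lay in the sham range. Its difference was 1.56 ± 0.69 with an adjusted p of 0.197, and without RYGB replicate 3 it was 0.620. That library also had the highest summed level of the 7 listed crypt and proliferation markers of 12 in the jejunum (106 CPM, against 23.4 to 78.0 in the others), and the part of these cells in the value was not tested.

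The other 5 genes were not called in the jejunum. Tjp1, the scaffold ZO-1, ranged from 101 to 160.2 CPM in RYGB and from 56.0 to 114 in sham libraries (0.55 ± 0.26, adjusted p = 0.227 by limma). Cldn7 ranged from 849.9 to 940.1 against 502 to 967 (0.39 ± 0.22), and Cldn3 from 232 to 255 against 176 to 248 (0.34 ± 0.17). Cldn15 was the gene with a negative difference: its RYGB libraries ranged from 594 to 694 CPM and its sham libraries from 655 to 942 (-0.31 ± 0.19, adjusted p = 0.340). Ocln differed by 0.04 ± 0.17, with a 95% interval from -0.33 to 0.41. In sum 7 of 8 genes had a positive difference, and their median was 0.47 on the log2 scale where the median of all jejunal genes was -0.04. These counts are a description of the chosen genes.

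**Figure D2:**
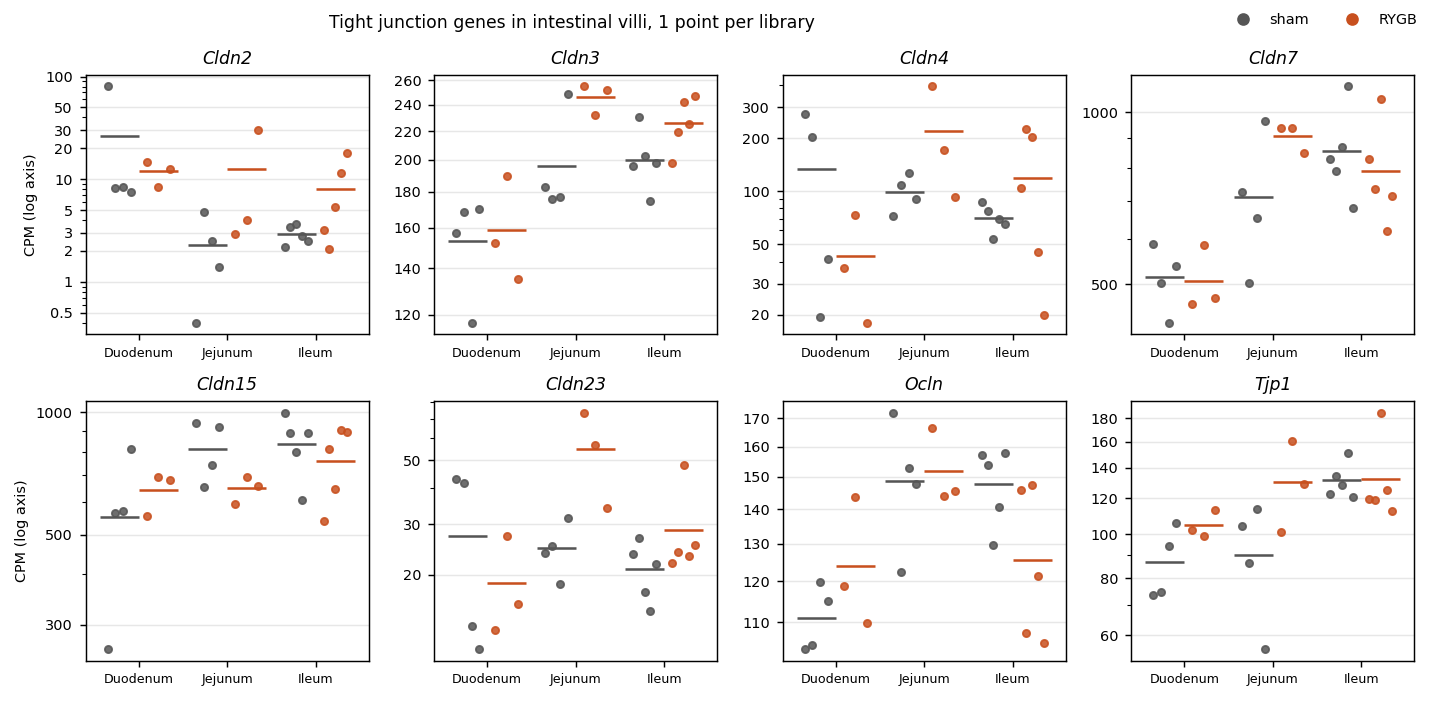
CPM (log axis) of the 8 genes listed in the gut, by segment, 1 point per library with a line at the group mean. The jejunal RYGB points of Cldn23 (34.0 to 73.4 CPM) lie above all jejunal sham points (18.6 to 31.4), and Cldn4 and Cldn2 spread widely within groups.

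In the duodenum, which RYGB excludes from food, the RYGB and sham values of all 8 genes overlapped. Cldn4 was at 36.9, 73.6 and 18.0 CPM in RYGB and at 274, 204, 19.4 and 41.1 in sham libraries. Sham replicates 1 and 2 were far above all others, and the remaining sham libraries lay within the RYGB range. The difference was -1.14 ± 0.91 (adjusted p = 0.522 by limma). Sham replicates 1 and 2 were 2 of the 3 libraries with high Clps. Without those 3 libraries the Cldn4 difference was 0.859, of the opposite sign, and the Cldn23 difference turned from -0.35 to 0.598. Cldn23 was at 43.2 and 41.6 CPM in the same 2 sham libraries, at 13.2 and 11 in the other 2, and at 12.8, 27.3 and 15.8 in RYGB libraries. RYGB replicate 3, the third library with high Clps, was low in Cldn4 and in the lower part of the range in Cldn23.

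The channel-forming claudins of the duodenum stood apart in a single library. Cldn2 was at 80.3 CPM in sham replicate 1, at 7.5 to 8.3 in the other sham libraries and at 8.3 to 14.8 in RYGB libraries. Cldn15 was lowest in the same sham library, at 261 CPM, against 566 to 811 in the other sham and 556 to 694 in RYGB libraries. Without it the Cldn2 difference turned from -0.30 ± 0.75 to 0.49 (adjusted p = 0.278), and its alternatives ranged in adjusted p from 0.278 to 0.98. The 7 listed crypt and proliferation markers of 12 summed to 33.8 to 70.9 CPM in duodenal sham and 77.3 to 175 in duodenal RYGB libraries. Sham replicate 1, with the highest Cldn2, therefore had a lower sum than every RYGB library, unlike the jejunal library with high Cldn2. The part of those cells was not tested. Cldn3, Cldn7, Ocln and Tjp1 were steadier, with differences of 0.05 ± 0.18, -0.02 ± 0.17, 0.15 ± 0.14 and 0.28 ± 0.16. For Cldn7 the 95% interval ran from -0.41 to 0.37, and for Ocln from -0.16 to 0.47.

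In the ileum Cldn4 was at 104.9, 225, 204, 45 and 20 CPM in RYGB libraries, whereas the 5 sham libraries lay between 53.4 and 86.8. The RYGB libraries fell on both sides of the sham range, 3 above it and 2 below it. The difference of 0.29 ± 0.54 did not pass (adjusted p = 0.773 by limma). Cldn2 was at 3.2, 2.1, 5.3, 11.6 and 17.9 CPM in RYGB and between 2.2 and 3.7 in sham libraries, so that 3 RYGB libraries exceeded every sham library (0.89 ± 0.42, adjusted p = 0.197). RYGB replicate 5 had the highest Cldn2 and the lowest Cldn4. It also had the highest sum of the 8 listed crypt and proliferation markers of 12 in the ileum, at 134 CPM. These sums ran from 54.5 to 134 CPM in RYGB and from 67.8 to 125 in sham libraries, whose Cldn2 was 2.2 to 3.7. The part of those cells was not tested.

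Cldn23 in the ileum was at 22, 24, 48.3, 23.3 and 25.3 CPM in RYGB and at 23.5, 26.8, 17.4, 14.9 and 21.7 in sham libraries, with RYGB replicate 3 high and the groups overlapping (0.40 ± 0.22, adjusted p = 0.274). Ocln had the lowest raw p among the ileal differences below 0. It ranged from 105 to 148 CPM in RYGB and from 130 to 158 in sham libraries (-0.24 ± 0.12, adjusted p = 0.222). Cldn3 differed by 0.18 ± 0.10, Cldn7 by -0.12 ± 0.16, Cldn15 by -0.15 ± 0.18 and Tjp1 by -0.01 ± 0.14. All ileal RYGB libraries were run on 1 lane and all sham libraries on others, so that in the ileum the lane cannot be told apart from the surgery. Whether the Cldn23 difference itself varied between segments was not tested.

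**Figure D3:**
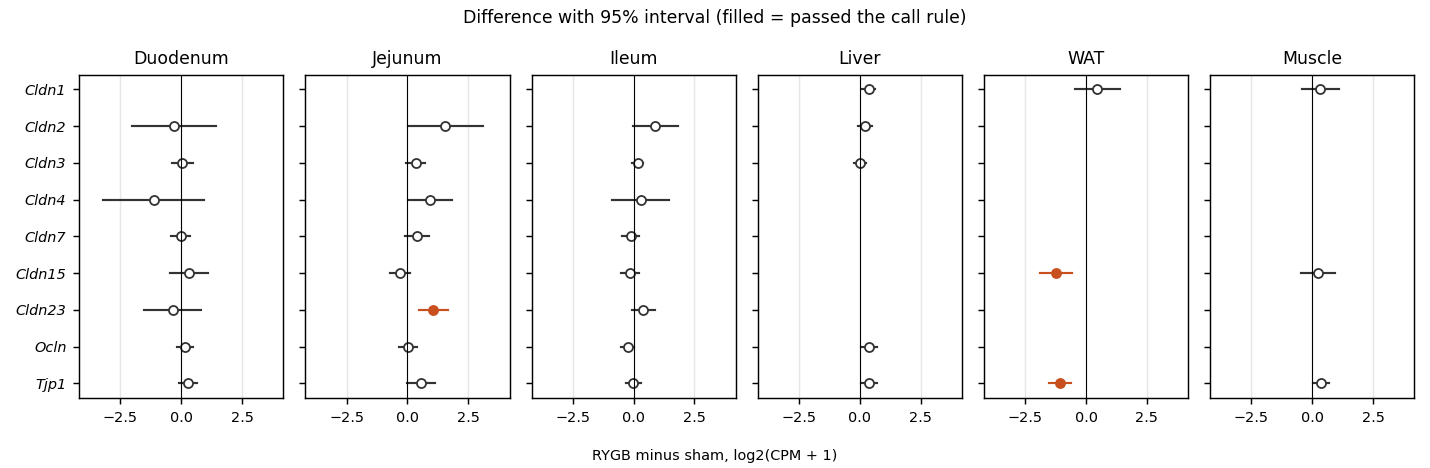
RYGB minus sham on the log2(CPM + 1) scale with 95% intervals, for each gene in each tissue that listed it. Filled points passed the call rule: Cldn23 in the jejunum (1.07), and Cldn15 (-1.25) and Tjp1 (-1.07) in WAT.

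The spread between libraries was wide for Cldn2 and Cldn4 in some groups and not in others. The SD of log2(CPM + 1) of Cldn4 was 1.80 in duodenal sham, 1.04 in jejunal RYGB and 1.46 in ileal RYGB libraries, above 99.4%, 98.0% and 99.5% of the genes tested in that segment. It was also wide in duodenal RYGB libraries, at 0.99, above 99.3% of genes. Cldn4 in ileal sham libraries had an SD of 0.26, above 66.4% of genes. Cldn4 in jejunal sham libraries had an SD of 0.35, below the 0.45 of Tjp1. Cldn2 had SDs of 1.59 in duodenal sham, 1.64 in jejunal RYGB and 1.09 in ileal RYGB libraries. In jejunal sham libraries the Cldn2 SD was 0.87, above 98.2% of genes. It was 0.40 in duodenal RYGB and 0.23 in ileal sham libraries, both below those of Cldn23 (0.54 and 0.32). Cldn23 reached 1.01 in duodenal sham libraries. Ocln and Cldn3 were the steadiest: the Ocln SD ranged from 0.10 to 0.23 and the Cldn3 SD from 0.07 to 0.25 over the 6 gut groups. The median gene had an SD between 0.18 and 0.31 in these groups.

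**Figure D4:**
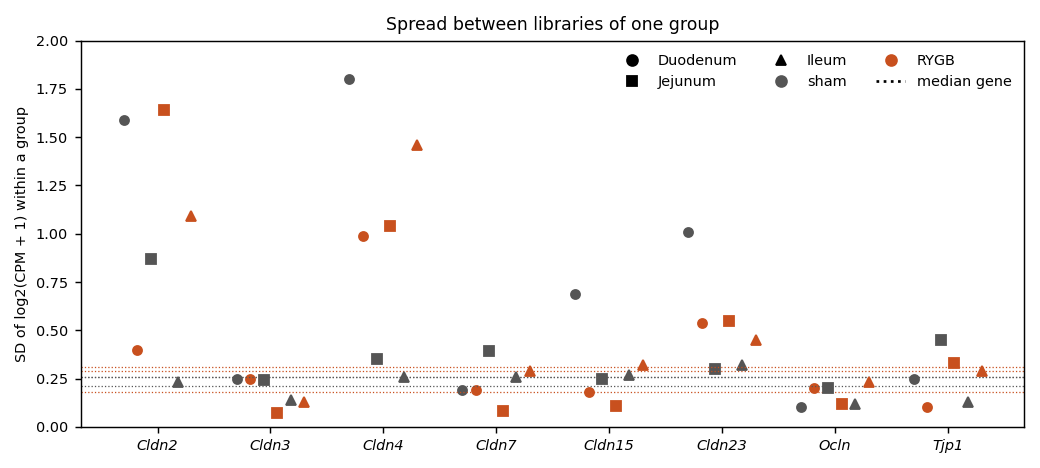
SD of log2(CPM + 1) between the libraries of each gut group, by gene, with marker shape for the segment and colour for surgery. Dotted lines give the median SD of all genes in each group (0.18 to 0.31); Cldn2 and Cldn4 reach 1.64 and 1.80, and Ocln stays at or under 0.23.

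Deviations from the mean of each segment and surgery group were compared between the 7 genes that averaged 10 CPM or more in all 3 segments, over the 24 intestinal libraries. Of the 21 pairs, Cldn4 and Cldn23 had the highest correlation, with Pearson r = 0.70 (permutation p = 0.0177 within groups, adjusted 0.31 over the pairs) and Spearman correlation = 0.60 (permutation p = 0.0341, adjusted 0.358). Without the 2 libraries farthest in Cldn4, r was 0.73. Within segments r was 0.90 in the duodenum, 0.64 in the jejunum and 0.38 in the ileum. No pair passed the adjustment. The neighbouring genes Cldn3 and Cldn4 had r = 0.28 (permutation p = 0.299, adjusted 0.582) and Spearman correlation = 0.20 (permutation p = 0.442, adjusted 0.678). Whether libraries of different segments share a mouse is not known, so the 24 may not be independent.

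Over the same libraries, the 3 genes with the highest Pearson r to each member were listed among 6614 genes that averaged 10 CPM or more in every segment, with no test because they were picked as the highest. Cldn7 was followed most closely by Epcam (r = 0.93), then Dnpep (0.79) and Slc44a4 (0.78). Cldn3 was closest to Lsr (0.82), a receptor of tricellular junctions, then Capns1 (0.74) and Dcaf15 (0.73). Cldn4 was closest to Pmepa1 (0.94), Gprc5a (0.93) and Rasgef1b (0.91), and Cldn23 to Klf10 (0.88), Fam214b and Sdcbp2 (0.85 each). For Cldn15 the genes were Cpne2 and Cyp4f40 (0.86 each) and Ppp2r5d (0.85), for Tjp1 Ago2 (0.90), Ahnak and Dyrk2 (0.89 each), and for Ocln Prkcd, Egfr and Cerk (0.71 each). These values share depth, tissue handling and cell makeup of the libraries.

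The wider junction genes, in lists of gene names, were counted in the same fits. In the jejunum 4 of 14 tested adherens junction and desmosome genes rose and 0 fell, beside the 9.75% of all genes called. Among the leading 3, Pkp2 (plakophilin 2, a desmosomal plaque protein) was at 71.9 ± 9.74 CPM in RYGB (n = 3) and 33.5 ± 3.48 in sham libraries (n = 4), a difference of 1.08 ± 0.17 (log2, SE; adjusted p = 0.00489 by limma). Ctnnb1 (beta-catenin) rose by 0.74 ± 0.19 (adjusted p = 0.035) and Cdh1 (E-cadherin) by 0.69 ± 0.18 (adjusted p = 0.0394). The median difference of the 14 genes was 0.53.

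Of 7 other tight junction membrane proteins tested in the jejunum, 2 rose: Igsf5 (a junctional adhesion molecule; 0.75 ± 0.15, adjusted p = 0.0159 by limma) and Cxadr (the coxsackievirus and adenovirus receptor, an adhesion protein of the junction; 0.66 ± 0.18, adjusted p = 0.0462). Of 18 scaffold and polarity genes 1 fell, Amotl2 (angiomotin-like 2), from 23.4 ± 5.14 to 5.87 ± 3.83 CPM (-2.02 ± 0.41, adjusted p = 0.0159). St14, the membrane serine protease matriptase, was the 1 gene called of 14 transcription factors and protease regulators of claudins (0.59 ± 0.15, adjusted p = 0.0342). Of 22 other claudins and claudin-like genes 2 were listed in the gut, Cldn12 and the gene listed as Cldn25, whose Ensembl identifier belongs to Cldnd1, and 0 were called by limma in any segment. In the jejunum 1 of these 2 had an unadjusted p under 0.05, and in the duodenum and ileum 0 had.

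In the ileum 3 of 18 scaffold and polarity genes fell and 0 rose, where 6.05% of all genes were called. Amotl2 fell by 0.88 on the log2 scale (SE 0.18, adjusted p = 0.0162 by limma), Amot by 0.84 (SE 0.17, adjusted p = 0.0165) and Magi3, a membrane-associated scaffold, by 0.69 (SE 0.14, adjusted p = 0.0145). Of the 7 membrane proteins, 14 adherens junction and desmosome genes and 14 regulators, 0 were called in the ileum by limma and 1 in each list had an unadjusted p under 0.05 (26.5% of all genes). The membrane protein was Marveld2, named here after its values were seen. Its adjusted p of 0.0342 by limma passed, but its difference of -0.41 ± 0.10 was short of the fold change rule. In the duodenum 0 genes of these lists were called. There 6 of 18 scaffold genes, 1 of 14 adherens junction genes, 1 of 14 regulators and 0 of 7 membrane proteins had an unadjusted p under 0.05, beside 18.8% of all genes.

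Marker levels of other cells differed between RYGB and sham libraries of the scraped villi. In the jejunum the summed level of the 7 listed leukocyte markers of 11 was 33.0 to 53.3 CPM in RYGB and 63.6 to 81.1 in sham libraries, and that of the 6 listed Paneth markers of 8 was 122 to 236 against 33.7 to 69.6. Neither pair of ranges overlapped, with 3 of the 7 leukocyte markers called as lower and 4 of the 6 Paneth markers as higher. The sums of the 11 epithelial markers overlapped, at 23892 to 37508 CPM in RYGB and 21622 to 36639 in sham libraries. Of these 11 markers 3 were called as higher and 0 as lower, 8 had an unadjusted p under 0.05, and their median difference was 0.58, beside 0.47 for the 8 junction genes and 0.53 for the adherens junction and desmosome genes. In the ileum the 7 listed leukocyte markers summed to 22.7 to 53 CPM in RYGB and 49 to 101 in sham libraries, and 5 of the 7 were called as lower, with a median difference of -1.33. The 7 listed in the duodenum went the other way, at 68.4 to 163 CPM in RYGB and 29.2 to 75.2 in sham libraries. All 7 had a positive difference there (median 1.49), but 0 were called. In the duodenum the 7 listed crypt and proliferation markers summed to 77.3 to 175 CPM in RYGB and 33.8 to 70.9 in sham libraries, with a median difference of 1.15 and 0 called. The epithelial markers summed to 20484 to 21867 against 22257 to 32807. Gene by gene these 11 did not share a direction: 5 had a positive difference, the median difference was -0.02 and 0 were called. Paneth markers were not higher in the jejunum alone. All 6 listed in the duodenum had a positive difference (median 1.33), as had all 7 listed in the ileum (median 0.64), with 0 called in either segment. The part of any of these cell types in the differences of Cldn23 and the other junction genes was not tested.

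In the liver 0 of 5 genes were called, beside a background of 7.08%. Cldn1, a sealing claudin, was at 149.7, 170.2, 207 and 178 CPM in RYGB and at 119, 148, 145 and 135 in sham libraries. It was the 1 of 5 genes whose groups did not overlap, by less than 2 CPM, where 16.4% of all liver genes did not overlap. The difference was 0.36 ± 0.12 (adjusted p = 0.091 by limma). Ocln ranged from 19.5 to 26.5 CPM in RYGB and from 14.0 to 21.2 in sham libraries (0.38 ± 0.15, adjusted p = 0.137), and Tjp1 from 50.3 to 66.8 against 37.0 to 58.8 (0.37 ± 0.15, adjusted p = 0.140). These 3 of the 5 genes had an unadjusted p under 0.05, as had 26.9% of all liver genes. The median difference of all liver genes was 0.13, and after libraries were scaled by their median ratios the Cldn1, Ocln and Tjp1 differences were 0.209, 0.240 and 0.222. Cldn2 differed by 0.23 ± 0.13 and Cldn3 by 0.00 ± 0.11, with a 95% interval from -0.24 to 0.24. In the 3 lanes that held both groups, the Cldn1 difference was 0.02 (1 RYGB and 1 sham library), 0.28 (1 and 2) and 0.68 (2 and 1). The 5 listed cholangiocyte markers of 6 summed to 70.3 to 133 CPM in RYGB and 56.5 to 91.1 in sham livers. The 7 listed leukocyte markers of 11 summed to 251 to 605 against 125 to 197, with 5 called as higher, and the 8 listed stromal markers of 10 to 396 to 790 against 267 to 371, with 2 called as higher. Neither of these last ranges overlapped, and the part of these cells was not tested.

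In WAT 2 of 3 genes fell, beside a background of 24.1%. Cldn15 was at 42.0, 59.5, 47.5 and 27.6 CPM in RYGB libraries and at 80.5, 69.9, 145 and 136 in sham libraries. Tjp1 was at 161, 218.5, 166 and 114.7 CPM in RYGB and at 271, 345, 408 and 347.5 in sham libraries. Neither gene's groups overlapped, as was the case for 41.2% of all WAT genes. Mean Cldn15 in RYGB was 0.408 of the sham mean (-1.25 ± 0.29, adjusted p = 0.0133 by limma), and mean Tjp1 was 0.481 of it (-1.07 ± 0.20, adjusted p = 0.00602). Both calls held in every alternative, with adjusted p from 0.0109 to 0.0469 for Cldn15 and from 0.0043 to 0.0207 for Tjp1. With median ratio scaling the differences were -1.36 and -1.18. Within lane 5, with 2 libraries in each group, the differences were -0.49 and -0.68, and within lane 6, with 1 in each group, -2.26 and -1.59. Cldn1 was at 5.5, 5.5, 9.1 and 15.9 CPM in RYGB and at 6.7, 3.4, 11.5 and 3.7 in sham libraries and was not called (0.46 ± 0.41, adjusted p = 0.377).

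Markers of other cells moved with these WAT values. The 7 endothelial markers, all listed, summed to 1033 to 1473 CPM in RYGB and 1845 to 2947 in sham libraries, and 6 of the 7 were called as lower. The 6 adipocyte markers summed to 6536 to 12764 against 13702 to 20092, with 1 of the 6 called as lower, and the 11 leukocyte markers to 2262 to 5222 against 1010 to 1611, with 8 called as higher and 2 (Itgam and Cd68, both myeloid markers) as lower. In these 3 lists the RYGB and sham ranges did not overlap. The 5 listed keratinocyte markers of 10 summed to 15.9 to 22.8 CPM in RYGB and 8.6 to 126 in sham libraries. Those ranges overlapped, but 2 of the 5 were called as lower and 0 as higher. Their median difference was -1.80, and 1 of the 5 had a positive difference. RYGB replicate 4 had the lowest Cldn15, Tjp1, endothelial and adipocyte values and the highest leukocyte sum of the RYGB libraries. It was also the RYGB library of lane 6 and the library that correlated least with its group. Without it Cldn15 differed by -1.05 and Tjp1 by -0.909, and both were still called. Cldn5, the claudin of endothelial junctions and named here after its values were seen, fell from 216 ± 105 to 64.0 ± 13.9 CPM (-1.58 ± 0.42, adjusted p = 0.0196), although its groups overlapped. The part of the cell makeup in the Cldn15 and Tjp1 values was not tested.

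**Figure D5:**
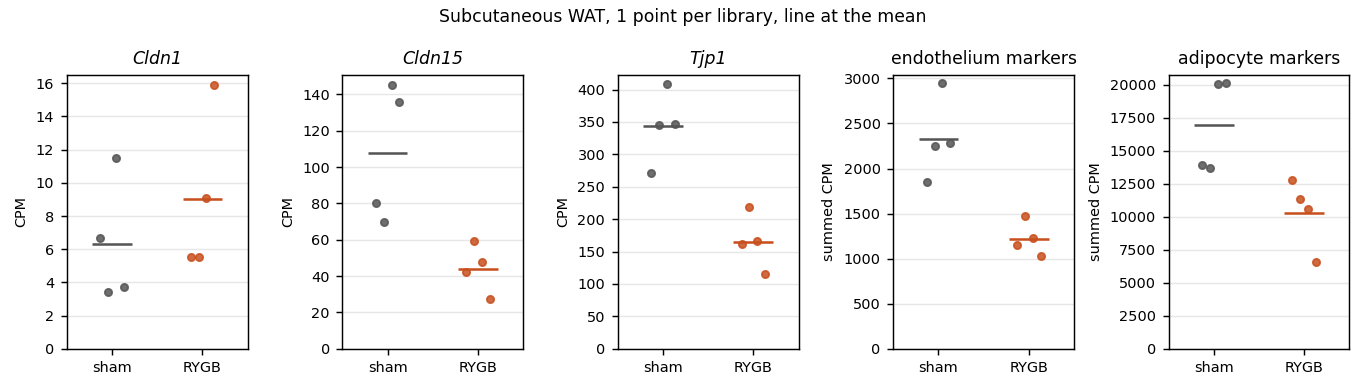
CPM of Cldn1, Cldn15 and Tjp1 and the summed CPM of 7 endothelial and 6 adipocyte markers in WAT, 1 point per library with a line at the mean. The RYGB points of Cldn15 (27.6 to 59.5) and Tjp1 (114.7 to 218.5) lie below all sham points, as do those of both marker sums.

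In muscle 0 of 3 genes were called, and 0% of all 11966 genes tested were. Tjp1 was at 53.6, 53.4, 69.4 and 44.8 CPM in RYGB and at 41.8, 37.2, 54.7 and 38.5 in sham libraries, with overlapping groups (0.35 ± 0.15, adjusted p = 0.331 by limma), and it was the 1 gene of 3 with an unadjusted p under 0.05 (14.6% of all genes). The 9 listed stromal and smooth muscle markers of 10 summed to 4282 to 5199 CPM in RYGB and 3267 to 3955 in sham muscle. Most of that sum was 1 gene, Des, at 3671 to 3932 CPM in RYGB and 2598 to 2800 in sham libraries. Of the 9 markers 6 had a positive difference, Col1a1, Col1a2 and Col3a1 had a negative one, and 0 were called. The part of these markers was not tested. Cldn1 ranged from 1.4 to 5.0 CPM in RYGB and from 1.1 to 4.2 in sham libraries, and Cldn15 from 2.2 to 3.5 against 1.4 to 6.0. The 95% intervals of the differences ran from -0.44 to 1.08 for Cldn1 and from -0.45 to 0.93 for Cldn15.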

How the data were processed

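RNA of 48 libraries was prepared with an RNeasy kit and a stranded mRNA library kit. The submitters' processing notes name HTSeq and the build GRCm38; the aligner is not given in the sources used here. The authors deposited 1 table per tissue of CPM rounded to 0.1, with 1 column per library, a unit settled from the values, since with 1 line kept per gene the deposited columns summed to between 925122 and 998777. Repeated lines held equal values and were counted once, and 12 faulty lines of the liver table, none of them a gene described here, were left out. Depth is unknown, so no count model was used and no interval for counting error is given.

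Groups came from the sample titles. Each tissue was fitted alone with limma 3.58.1 (R 4.3.3, trended prior) on log2(CPM + 1) for genes averaging 1 CPM or more, two-sided, with Benjamini-Hochberg adjustment over all genes of the tissue. A call needed an adjusted p under 0.05 and a fold change of at least 1.5. Fold changes on this scale understate those of low genes. The fit was also run on simulated data with noise drawn independently for each gene, unlike libraries that share shifts, and no result here rests on that run. Correlations used 100000 permutations within groups. Exon lengths came from the GENCODE annotation of GRCm38 and windows before start sites from RefSeq (GRCm38.p6); Python 3.11.15, pandas 2.3.3, NumPy 2.4.6, SciPy 1.17.1 and matplotlib 3.10.9 were used.

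Named were all members in every tissue that lists them, up to 3 called genes with the largest difference per list and gut segment, and the 3 genes most like each member with at least 10 CPM. One further list of genes is not reported here. The members and the gene lists were chosen with earlier results of these data known. Alternatives were pseudocounts of 0.1 and 5, no filter, a mean of at least 10 CPM, median ratio scaling, lane as a covariate, the replicate number as a block, no trend, the adjusted p alone and leaving out each library. Leaving out the 3 duodenal libraries with high Clps was added after seeing the data. Replicate numbers were not taken as pairs, because in no tissue did every same-numbered pair deviate together.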

Additional observations from a re-analysis of the deposited data

Results flagged for a closer look

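In 6 of 54 groups of 4 or 5 libraries, a single library lay far from the others on the log2(CPM + 1) scale, where chance gives about 1 in 20 (2.7 groups). The values below are the gap to the nearest library as a share of the range of the group. Cldn2 in duodenal sham libraries had a share of 0.96, with sham replicate 1 at 80.3 CPM and the others at 7.5 to 8.3. Cldn3 in jejunal sham libraries had a share of 0.882, with sham replicate 4 at 248 CPM and the others at 176 to 183. Cldn23 and Tjp1 in ileal RYGB libraries had shares of 0.824 and 0.785, both from RYGB replicate 3, at 48.3 and 185 CPM. In muscle, Cldn1 had a share of 0.844 from a low RYGB replicate 4 (1.4 CPM against 4.2 to 5.0) and Cldn15 a share of 0.856 from sham replicate 3 (6.0 CPM against 1.4 to 1.8).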

How the results depend on the processing

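The number of called genes stayed within 1.5 times of that reported in 94 of 101 alternatives over the 6 tissues. All 7 exceptions were in the jejunum, where 1 gene was called: 0 with lane as a covariate, and 0 to 2 when single libraries were left out. The lane fit rests on RYGB replicate 2 alone, which was the jejunal library of the other lane. Of 547 alternatives for single genes, 28 changed sign, all for differences that passed in neither fit. These were, with median ratio scaling, Cldn3 in the duodenum (-0.075) and liver (-0.148) and Tjp1 in the ileum (0.0943). Without the 3 duodenal libraries with high Clps they were Cldn2 (0.447), Cldn4 (0.859), Cldn7 (0.116), Cldn15 (-0.131) and Cldn23 (0.598). With single libraries left out, the differences ranged from -0.596 to 0.49 for Cldn2, -0.0795 to 0.165 for Cldn3 and -0.127 to 0.0491 for Cldn7 in the duodenum, from -0.0516 to 0.111 for Ocln in the jejunum, from -0.0617 to 0.795 for Cldn4 and -0.138 to 0.0399 for Tjp1 in the ileum, and from -0.058 to 0.0637 for Cldn3 in the liver. The causes were not tested.

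The fit with the replicate number as a block (replicate block) called 1 gene in the jejunum, 2 in WAT and 0 in the duodenum, ileum, liver and muscle, and turned Cldn7 in the duodenum to 0.00553. Same-numbered libraries deviated with correlations from -0.281 to 0.389, so the numbers were not read as pairs. Median ratio scaling was compared because the median of all genes was 0.12 in the duodenum, 0.13 in the liver and 0.11 in WAT. No lane fit was possible in the duodenum, with 1 lane, or in the ileum, whose lanes hold 1 group each.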

Other observations

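In WAT, the junction genes outside the 10 members moved in both directions, beside 24.1% of all genes called. Of 21 scaffold and polarity genes 8 fell and 3 rose, and of 14 adherens junction and desmosome genes 7 fell and 3 rose. Of 9 other tight junction membrane proteins 3 fell and 3 rose, and of 8 other claudins 2 fell and 1 rose. Of 11 transcription factors and protease regulators of claudins 2 fell and 2 rose. In the liver 0 genes of these lists were called by limma, with between 1 and 5 per list at an unadjusted p under 0.05 (26.9% of all genes). In muscle 0 genes of these lists were called by limma, with between 0 and 3 per list at an unadjusted p under 0.05 (14.6% of all genes).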
